A study of Mus musculus with 2 samples.

Results

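The 9 genes of bone morphogenetic protein (BMP) signalling described here were examined for monomethylation of histone H3 at lysine 4 (H3K4me1) in mouse embryonic stem cells. They were the ligand gene Bmp4, the receptor genes Bmpr1a and Bmpr2, the signal-carrying SMAD genes Smad1 and Smad5, the inhibitory SMAD gene Smad6, and the target genes Id1, Id2 and Id3. The genes were chosen by name, 9 of the 21536 protein-coding genes measured, and the rule uses no measured value. For each gene, the peaks that overlapped its record, extended by 50 kb on each side, were taken from the mm10 lists of both replicates and from the authors' list of replicated peaks.

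The assay was ChIP-seq, in which chromatin pulled down with an antibody to H3K4me1 is sequenced, and the cells were E14TG2a.4, an embryonic stem cell line of male sex and 129/Ola strain, with an age label of 3.5 days. The line carried no added allele and received no treatment that the labels name. The labels give 2 biological replicates and 1 group, and both replicates carry the same line and donor labels. With no control library and no second condition among the data used, genes were set against each other and replicate against replicate. No p-value was computed, because genes are not replicates of each other.

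BMP ligands bind a complex of type I and type II receptor kinases at the cell surface, which phosphorylates SMAD1 and SMAD5. These enter the nucleus with SMAD4 and act at enhancers and promoters, where the Id genes are among the best known targets. ID proteins bind basic helix-loop-helix factors and keep them from DNA, and in mouse embryonic stem cells BMP4 acting through Id genes is known to help hold back neural differentiation. H3K4me1 marks enhancers, active or poised, and the flanks of active promoters, while the start sites of active genes usually carry the trimethylated form in its place.

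The promoter sequences below are shown for 4 genes whose start sites differed in how the peaks lay around them. Each is the 250 bases before the start site, read 5′ to 3′ on the strand of the gene, from RefSeq on GRCm38.p6, the assembly of mm10. The Bmp4 stretch lay wholly inside a peak of the replicated list, the Id2 and Id3 stretches lay mostly in a gap between peaks, and the Smad1 stretch stood next to the last peak before a long upstream region with none. Capitals mark 2 short motifs that SMAD proteins are known to bind, GGCGCC and GTCT, each searched on both strands, so that GTCT on the other strand reads AGAC.
Bmp4, chr14:46390670-46390919, minus strand: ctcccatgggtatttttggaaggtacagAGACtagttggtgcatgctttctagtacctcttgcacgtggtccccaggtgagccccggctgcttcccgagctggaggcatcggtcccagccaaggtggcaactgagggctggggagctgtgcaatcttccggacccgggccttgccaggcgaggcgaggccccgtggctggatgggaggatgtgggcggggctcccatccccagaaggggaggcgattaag
Smad1, chr8:79399429-79399678, minus strand: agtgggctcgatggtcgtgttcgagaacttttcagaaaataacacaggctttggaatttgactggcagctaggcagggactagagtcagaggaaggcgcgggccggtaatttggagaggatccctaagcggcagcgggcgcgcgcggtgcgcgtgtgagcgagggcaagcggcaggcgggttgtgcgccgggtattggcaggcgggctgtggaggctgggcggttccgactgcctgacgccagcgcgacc
Id2, chr12:25096093-25096342, minus strand: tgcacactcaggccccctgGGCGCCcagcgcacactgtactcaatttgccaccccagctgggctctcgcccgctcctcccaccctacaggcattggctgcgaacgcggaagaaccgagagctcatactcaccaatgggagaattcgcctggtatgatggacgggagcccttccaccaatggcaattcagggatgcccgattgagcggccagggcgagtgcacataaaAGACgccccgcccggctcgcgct
Id3, chr4:136143572-136143821, plus strand: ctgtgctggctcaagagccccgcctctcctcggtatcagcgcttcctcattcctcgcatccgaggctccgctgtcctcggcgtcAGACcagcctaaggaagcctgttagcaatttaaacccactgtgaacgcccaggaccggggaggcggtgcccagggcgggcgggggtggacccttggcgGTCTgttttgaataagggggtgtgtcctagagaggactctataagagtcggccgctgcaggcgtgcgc

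GGCGCC was found once in the Id2 stretch and was not found in the other 3. Among the genes not printed, it was also found in the promoters of Bmpr1a and Bmpr2 and in 1 of the 3 Smad5 entries. GTCT or its complement was found once in Bmp4, once in Id2, 2 times in Id3 and 0 times in Smad1. Over all 32841 promoters of this length in the RefSeq table, 9.59% held GGCGCC and 82.9% held GTCT, so the shorter motif was present in most promoters. A match describes the letters only. CpG dinucleotides numbered 11 in the Bmp4 stretch, 25 in Smad1 and 18 in each of Id2 and Id3, against a median of 6 over all promoters. Of the 250 bases, the replicated list covered 250 in Bmp4, 42 in Smad1, 13 in Id2 and 34 in Id3. The RefSeq table held 8 of the 9 genes, all but Id1.

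The lists held 313453 peaks for replicate 1, 325226 for replicate 2 and 226060 in the replicated list, and since peak lists hold no reads the depth of sequencing is unknown. Of the peaks in the 9 gene windows, 379 of 454 in replicate 1 (83.5%) and 382 of 465 in replicate 2 (82.2%) were overlapped by at least 1 bp by a peak of the other replicate, against 82.8% and 79.4% over the genome. Replicated peaks within 2 kb of the start site were present at 7 of 8 embryonic stem cell markers (all but Tdgf1). The same was true of 4 of 8 fibroblast markers, a check for feeder cells, and window coverage ran from 20.1% to 51.5% in the first list and from 0% to 31.4% in the second. The share of all genes with such a peak was 72.8%. Of the fibroblast markers, Dcn and Lum had no peak in their windows, while Thy1 at 31.4%, Col1a1 at 30.9% and Pdgfrb at 24.8% were well covered and had a peak at the start site, and any share of feeder cells in the values below was not tested.

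Coverage, the percent of the gene record and its 50 kb flanks that lay in peaks, separated the 9 genes into those with much of the mark and those with little. Id1, Smad6, Id3, Id2 and Bmp4, in that order, lay above 29.0%, the upper quartile of all genes. Bmpr1a lay between that quartile and the median of all genes, which was 12.8% in each replicate. Smad5, Bmpr2 and Smad1 lay just below the median. So 6 of the 9 genes were above the median of all genes and 3 below it, and the median of the 9 was 32.6% ± 1.82 (SD of the 2 replicate medians, n = 2). The side of the median was not settled for the low genes: with flanks of 100 kb Smad5 at 15.96% and Bmpr2 at 15.8% lay above the median of all genes, 12.9%, which made 8 of 9, and with 50 kb around the start site alone Bmpr2 did, at 13.4% against 12.7%.

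**Figure D1:**
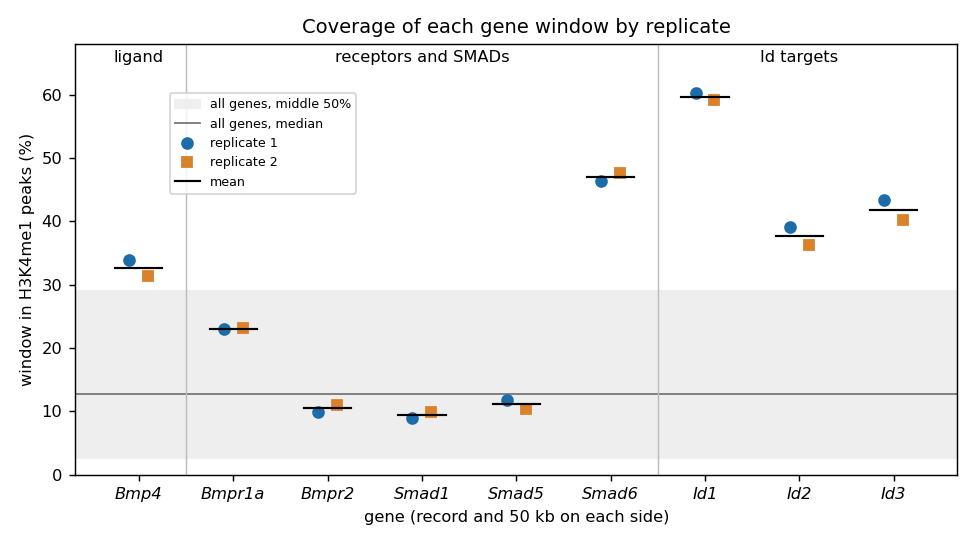
Percent of each gene window lying in H3K4me1 peaks (y axis) for the 9 genes (x axis), with 1 point per replicate and a bar at their mean; the grey band and line show the middle 50% and the median of 21536 genes. Id1, Id2, Id3, Smad6 and Bmp4 sit above the band, and Smad1, Smad5 and Bmpr2 sit near the line.

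Bmp4, the ligand, acts on the cells that secrete it and on their neighbours. Its record lies at chr14:46383525-46390669 on the minus strand of mm10. Coverage of its window was 33.9% in replicate 1 and 31.3% in replicate 2, a mean of 32.6% ± 1.82 (SD, n = 2), which was higher than in 79.1% of all genes. The mark was densest around the gene itself: within 5 kb of the start site 68.9% of the bases lay in peaks in replicate 1 and 67.1% in replicate 2, and of the 7145 bp record 71.3% and 65.8% did. Coverage of the upstream flank was 38.5% ± 2.39 and that of the downstream flank 21.7% ± 0.96 (SD, n = 2 each). The strongest replicated peak, of 1530 bp at chr14:46396841-46398370, stood upstream of the gene with a signal of 9.51, the authors' enrichment value, above 96.7% of the peaks in that list. In each single replicate the strongest peak was instead one beginning 49511 bp (replicate 1, signal 9.15) or 49618 bp (replicate 2, signal 8.98) downstream of the start site. No other protein-coding gene had bases in the Bmp4 window.

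Bmpr1a encodes a type I receptor, also called ALK3, and Bmpr2 the type II receptor that activates it. The Bmpr1a record spans 92276 bp at chr14:34411061-34503336 on the minus strand. Its window was covered to 23.0% in replicate 1 and 23.1% in replicate 2, a mean of 23.0% ± 0.10 (SD, n = 2). Peaks were unevenly spread: the record itself was covered to 13.4% ± 1.85, the upstream flank to 28.6% ± 4.51 and the downstream flank to 35.3% ± 1.49. The downstream flank held the strongest replicated peak, 5633 bp wide at chr14:34370957-34376589, with a signal of 11.02, above 98.8% of its list. That peak covered the start site of Mmrn2, 127832 bp from the Bmpr1a start. It also covered that of Sncg, a gene named here after its values were seen, 128667 bp from the Bmpr1a start. The strongest mark in the receptor's window thus lay at other genes. Peaks also lay within 2 kb of the start of 9230112D13Rik, on the upstream side. With bases of neighbouring genes and their start sites left out, Bmpr1a coverage was 15.7%.

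Bmpr2, at chr1:59764279-59878081 on the plus strand, had the longest record of the 9, at 113803 bp, and the least covered. Only 2.56% of the record lay in peaks in replicate 1 and 4.05% in replicate 2, against medians of 12.4% and 12.2% over all gene records. Its flanks were covered to 21.3% ± 0.64 upstream and 16.1% ± 0.44 downstream. Coverage of the whole window was 9.94% and 11.1%, a mean of 10.5% ± 0.81 (SD, n = 2). Its strongest replicated peak (signal 9.25) stood at chr1:59925640-59927593, beyond the gene's 3′ end and beyond the start of Fam117b, near which another peak lay. In replicate 1 alone the strongest peak was instead upstream of the gene, at chr1:59729014-59729888, with a signal of 9.35.

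Smad1 and Smad5 encode the SMADs that BMP receptors phosphorylate. Smad1, at chr8:79338395-79399428 on the minus strand, had the lowest mean coverage of the 9 genes with these windows, 9.04% in replicate 1 and 9.98% in replicate 2, a mean of 9.51% ± 0.67 (SD, n = 2). Its upstream flank was nearly bare: 0.88% of it lay in peaks in replicate 1 and 0.79% in replicate 2, all of it in 1 peak next to the start site. From 2 to 50 kb upstream no list held a peak, which was true of Smad1 alone among the 9 genes. Over all genes, 22.2% had no replicated peak in that interval and 18.7% had none in either replicate, so an empty upstream flank was not rare. The next peak upstream stood 73.4 kb from the start site in replicate 1, 73.7 kb in replicate 2 and 73.6 kb in the replicated list.

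The mm9 lists, made separately by the authors, also held no peak there, and their next peak stood at 73.2 kb in replicate 1 and 73.6 kb in replicate 2. In the mm9 genome 96 of 100 evenly spaced 32-mers from that interval occurred only once. The Smad1 record was covered to 15.5% in replicate 1 and 18.3% in replicate 2 and its downstream flank to 9.28% and 9.04%, and the peaks ranked low. The top one of the replicated list, at chr8:79355476-79357036 within the gene, had a signal of 5.33, above 69.6% of its list, while in the other 8 windows the strongest peak stood above 91.7% or more. Near the downstream end of the window 2 replicated peaks lay within 2 kb of the start of Mmaa.

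Smad5, at chr13:56703010-56742378 on the plus strand, had a coverage of 11.9% in replicate 1 and 10.4% in replicate 2, a mean of 11.2% ± 1.02 (SD, n = 2). Its mark was denser near the start site than over the record: 35.2% and 34.7% of the bases within 5 kb of it lay in peaks, but 5.997% and 9.25% of the record did. Over all genes the medians were 22.3% and 19.9% near the start site and 12.4% and 12.2% in the record. The flanks of Smad5 held further peaks, at 15.5% and 13.7% upstream and 12.9% and 8.08% downstream. The strongest replicated peak began 1023 bp downstream of the start site, with a signal of 7.94, above 91.7% of its list. In replicate 2 alone the strongest peak was instead at the upstream edge of the window, at chr13:56652301-56654966, with a signal of 7.10. Peaks also stood within 2 kb of the start of Gm45623, 50817 bp downstream of the Smad5 start.

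Smad6 encodes an inhibitory SMAD that blocks BMP receptor signalling and is itself known as a BMP target gene. Its record, at chr9:63953076-64022085 on the minus strand, is 69010 bp long, close in length to that of Smad1. Window coverage was 46.3% in replicate 1 and 47.6% in replicate 2, a mean of 46.9% ± 0.88 (SD, n = 2), higher than in 92.1% of all genes. The record was covered to 66.4% and 73.0%, against 15.5% and 18.3% for Smad1. Joining peaks across gaps of up to 1 kb gave a domain of 41020 bp in replicate 1, 43821 bp in replicate 2 and 43575 bp in the replicated list, from 28541 to 72115 bp downstream of the start site, the widest at any of the 9 genes. It covered the 3′ part of the gene and ended just past it, and no other protein-coding gene had bases in the Smad6 window.

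At Smad6 the strongest replicated peak, 5440 bp wide at chr9:63982323-63987762, lay inside this domain with a signal of 13.1, above 99.8% of its list. In replicate 2 alone the strongest peak was instead an upstream one at chr9:64043060-64045995, with a signal of 11.7 against 14.7 for the strongest in replicate 1. Both regions held peaks in both replicates. The widest such domain at Smad1 was 3216 bp in replicate 1 and 3222 bp in replicate 2, and at Smad5 3497 bp and 4007 bp.

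**Figure D2:**
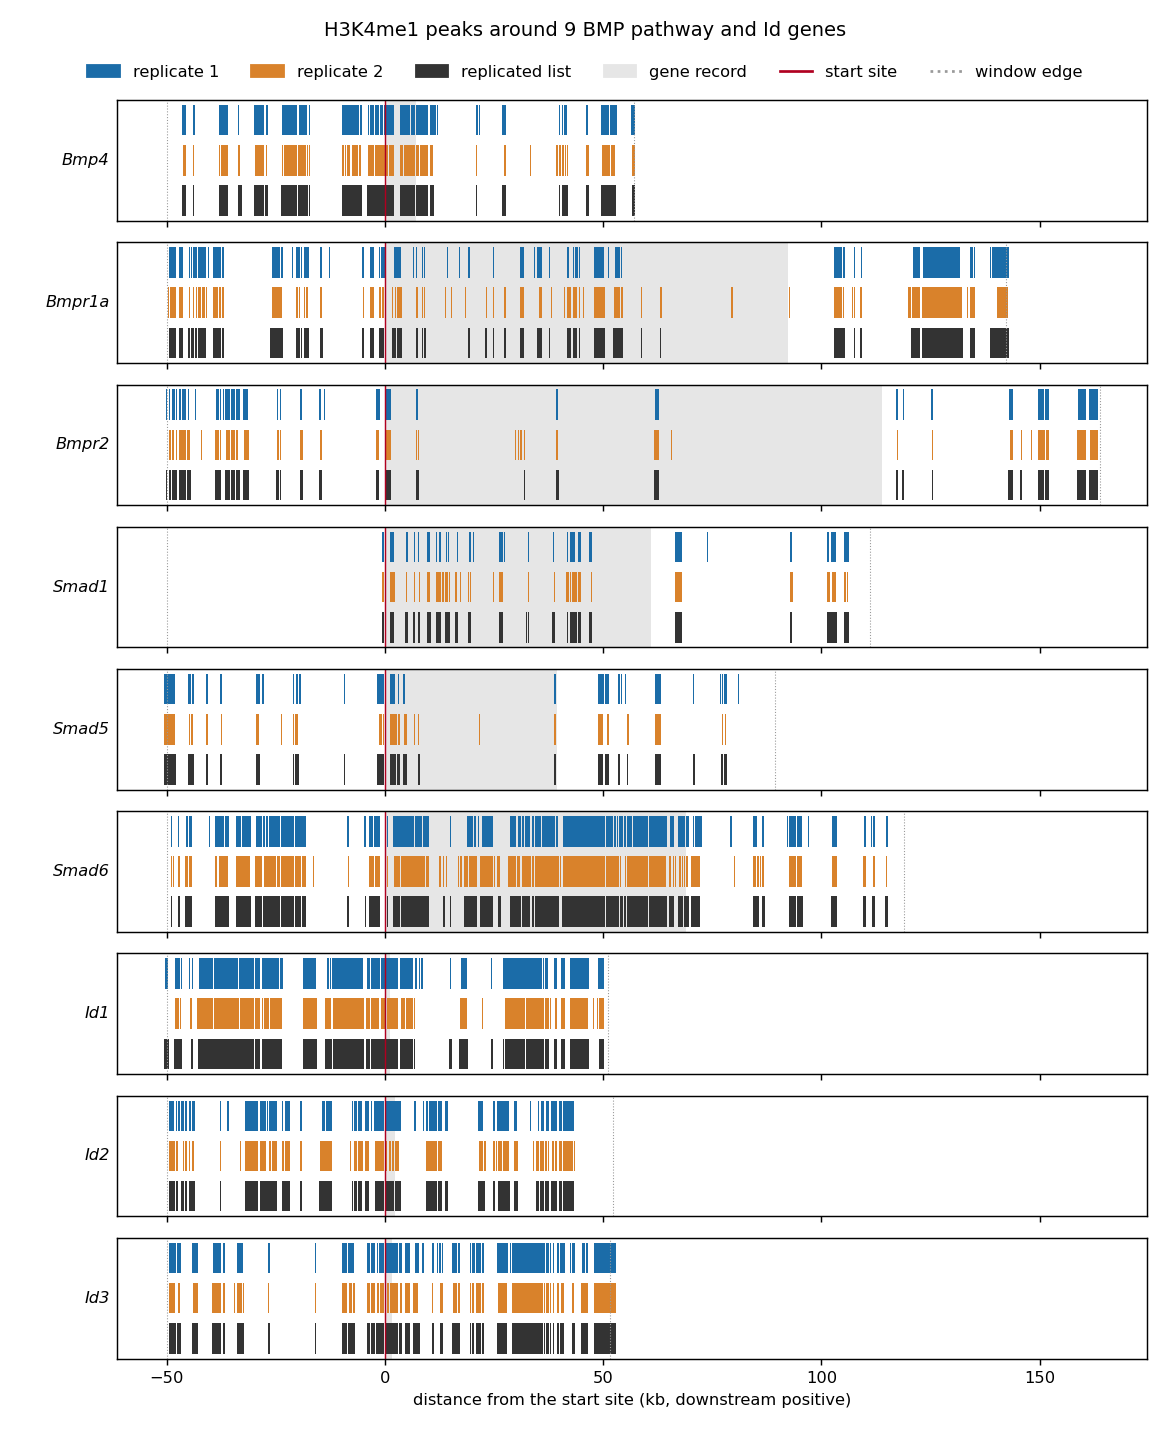
Peaks around each of the 9 genes, by distance from the start site in kb (x axis, downstream positive), in replicate 1 (blue), replicate 2 (orange) and the replicated list (black), with the gene record shaded and the window edges dotted. Smad6 carries a run of peaks through the 3′ part of its record, Id1 is covered on both sides, and the upstream flank of Smad1 is empty beyond the start site.

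Id1, Id2 and Id3 have short records of 1160, 2294 and 1571 bp, so their windows were almost wholly flank. Id1, at chr2:152736251-152737410 on the plus strand, had the highest coverage of the 9 genes, 60.2% in replicate 1 and 59.1% in replicate 2, a mean of 59.6% ± 0.79 (SD, n = 2), higher than in 98.3% of all genes. The upstream flank was covered to 69.8% and 70.9% and the downstream flank to 49.6% and 47.1%. Its peaks were wide, with a median of 783 bp in replicate 1 and 1024.5 bp in replicate 2, against 404 and 394 bp over the genome. They were also strong, the median replicated peak in the window standing above 83.5% of all replicated peaks.

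Of the replicated peaks in the Id1 window the strongest, 5935 bp wide at chr2:152696991-152702925, had a signal of 14.4, above 99.9% of its list. It lay upstream of Id1 and inside the record of H13, a gene named here after its values were seen. In replicate 2 alone the strongest peak was instead at chr2:152717393-152720691, upstream of Id1 but outside the H13 record, with a signal of 13.6. The window also held the start sites of Cox4i2 and Mcts2, with peaks within 2 kb of each. Leaving out neighbouring genes and their start sites kept 42.8% of the window, and 59.0% of what remained lay in peaks, so the level outside these genes was close to that of the whole window.

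Id2, at chr12:25093799-25096092 on the minus strand, had a coverage of 39.2% in replicate 1 and 36.3% in replicate 2, a mean of 37.8% ± 2.00 (SD, n = 2), higher than in 84.2% of all genes. Its upstream and downstream flanks were closer to each other than those of Id1 or Id3, at 40.1% ± 1.33 and 33.6% ± 1.74. Its strongest replicated peak was one of 705 bp at chr12:25055478-25056182, with a signal of 10.1. That peak began 39910 bp downstream of the Id2 start and lay inside the record of Kidins220, a gene named here after its values were seen. In the single replicates the strongest peak stood upstream instead, at chr12:25108360-25109553 in replicate 1 (signal 9.58) and at chr12:25102561-25103265 in replicate 2 (signal 8.98). Without neighbouring genes the coverage of Id2 was 38.4%.

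Id3, at chr4:136143822-136145392 on the plus strand, had a coverage of 43.3% in replicate 1 and 40.2% in replicate 2, a mean of 41.8% ± 2.20 (SD, n = 2), higher than in 87.9% of all genes. Unlike Id1, it was covered more downstream, 57.5% and 53.1%, than upstream, 27.4% and 26.7%. In the replicated list the strongest peak of all 9 windows lay on that side, 7141 bp wide at chr4:136172956-136180096. Its signal was 14.8, above 99.96% of the peaks in that list. It was the strongest peak of the Id3 window in both replicates, with signals of 13.2 and 14.2. In replicate 1 the strongest peaks of Smad6, at 14.7, and Id1, at 13.8, stood higher. The Id3 peak began 29134 bp from the Id3 start and just past the start of E2f2. That start stood 28452 bp from the Id3 start, so the peak lay inside the record of E2f2. Without neighbouring genes Id3 coverage was 33.0%, while at Id1 and Id2 the same step moved the value by less than the SD of the replicates.

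**Figure D3:**
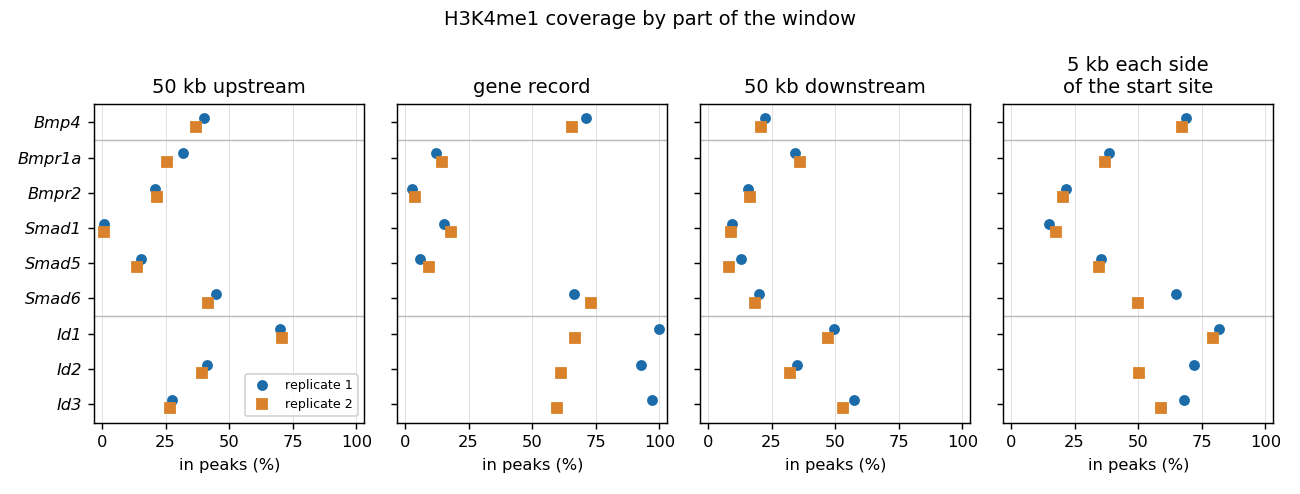
Percent of bases in peaks (x axes) in the 50 kb upstream flank, the gene record, the 50 kb downstream flank and the 5 kb on each side of the start site for the 9 genes (y axis), with 1 point per replicate. Upstream coverage runs from under 1% at Smad1 to about 70% at Id1, and the short Id records differ most between replicates.

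Set in order, most neighbouring genes differed by more than the gap between their replicates. The replicate values of Id1, Smad6, Id3, Id2, Bmp4 and Bmpr1a did not overlap. Those of Smad5 and Bmpr2 overlapped, and their order changed between the replicates. Those of Bmpr2 and Smad1 also overlapped, although Smad1 was the lowest of the 3 in each replicate. The full order of these 3 genes at the low end was thus not resolved. It also turned with the window: with flanks of 20 kb Bmpr2 was lowest at 4.25%, below Smad5 at 9.38% and Smad1 at 12.3%, and Bmpr2 was lowest as well in the mm9 lists and without neighbouring genes.

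At the median, Id1, Id2 and Id3 lay above the receptors and SMADs. Median coverage was 43.3% for the 3 Id genes and 11.9% for the 5 receptor and SMAD genes in replicate 1, and 40.2% and 11.1% in replicate 2. The difference was 31.4 percentage points in replicate 1 and 29.1 in replicate 2, a mean of 30.3 ± 1.64 (SD, n = 2). The groups overlapped, because Smad6 at 46.9% stood above Id3 and Id2. Without Smad6 they did not overlap: Bmpr1a was then the highest of the receptors and SMADs at 23.0%, and Id2 the lowest of the Id genes at 37.8%. That separation was lost with flanks of 100 kb, where Bmpr1a at 28.5% stood above Id2 at 21.6%. With 3 genes against 5 this is a description and not a test. Id4, the other gene of the family, named here after its value was seen, lay lower than these 3, at 15.7% ± 0.69 (SD, n = 2). By segment, the group medians were 40.1% and 21.3% upstream, 48.4% and 16.1% downstream, and 63.6% and 34.9% within 5 kb of the start site, for the Id genes and for the receptors and SMADs. In the gene records they were 78.5% and 13.4%, for Id records of 1160 to 2294 bp and receptor and SMAD records of 39369 to 113803 bp. The Id records lie wholly within 5 kb of the start site, so the records are unlike stretches. The Id genes were thus higher at the median in each segment, but the groups overlapped in both flanks. Upstream, Smad6 at 43.1% exceeded Id2 and Id3, and Bmpr1a at 28.6% exceeded Id3 at 27.1%. Downstream, Bmpr1a at 35.3% exceeded Id2 at 33.6%. In the gene records the means did not overlap. In replicate 2, however, the Smad6 record at 73.0% exceeded those of Id1 at 66.98%, Id2 at 61.2% and Id3 at 59.6%.

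At the start sites, the 9 genes shared a peak close by but differed in whether the mark crossed the start. A replicated peak lay within 2 kb of the start site at 9 of 9 genes, against 72.8% of all genes. The start base itself lay in a replicated peak at 2 of 9 genes, Bmp4 and Id1, against 18.9% of all genes. At the other 7, peaks stood on both sides and the start base lay in the gap between them, an arrangement found at 43.2% of all genes. In the replicated list the gap was 1765 bp at Bmpr1a, 1482 bp at Bmpr2, 1267 bp at Smad1, 1183 bp at Smad5 and 1563 bp at Smad6. It was 412 bp at Id2 and 385 bp at Id3.

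The gaps at Id2 and Id3 were shorter than those at the receptors and SMADs in each replicate. In replicate 1 they were 295 bp at both Id genes and ran from 767 bp at Smad6 to 1829 bp at Bmpr1a. In replicate 2 they were 578 bp at Id2 and 722 bp at Id3, and ran from 1241 bp at Smad5 to 1992 bp at Bmpr1a. The call at Bmp4 differed between replicates: its start base lay inside a peak in replicate 1 but in a 167 bp gap in replicate 2. At Id1 the start base lay inside a peak in both. Of the 250 bases printed above, 70 at Id2 and 0 at Id3 lay in a peak in replicate 1, and 0 at both in replicate 2.

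**Figure D4:**
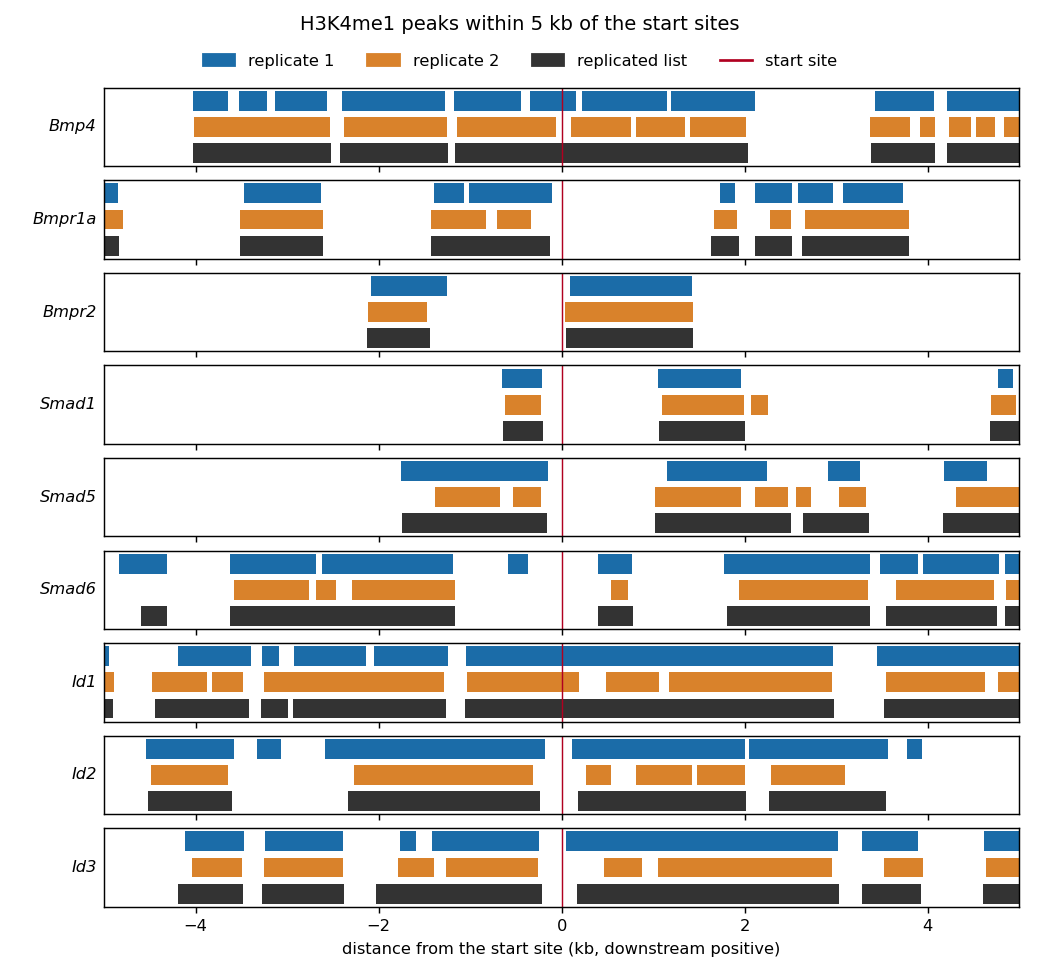
Peaks within 5 kb of the 9 start sites (x axis, distance in kb, downstream positive) in replicate 1 (blue), replicate 2 (orange) and the replicated list (black). The start site lies in a gap of 1183 to 1765 bp at the receptors and SMADs, in a gap of 412 bp at Id2 and 385 bp at Id3, and inside a replicated peak at Bmp4 and Id1.

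Peaks that reached within 2 kb of the start site and were centred on its transcribed side also differed in strength. The strongest such replicated peak had a signal of 11.2 at Id3, 10.6 at Id1 and 9.15 at Smad6. It was 7.94 at Smad5, 7.07 at Bmp4, 5.03 at Bmpr2, 4.99 at Id2 and 4.36 at Smad1. At Id1 and Bmp4 that peak crossed the start site, so its signal is not of the transcribed side alone. At Bmpr1a the signal was 2.52, above only 3.38% of the list, and the strongest peak centred upstream had a signal of 5.12. That order rested on the start used: a replicated peak with a signal of 6.26 began 2631 bp downstream of it, outside the 2 kb. The RefSeq promoter entry of Bmpr1a starts inside the record, at chr14:34502546. Within 2 kb of that start the downstream side, with the peak of 6.26, was the stronger. The value at Id3 rested on replicate 1, where it was 12.5 against 5.90 in replicate 2. Id1 had 9.07 in replicate 1, for a peak crossing the start site, and 9.18 in replicate 2, for one beyond it. At Id2 the value was 5.57 in replicate 1 and 5.01 in replicate 2, below Id1 in both.

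The records of the 3 Id genes were the stretches that differed most between the replicates. In replicate 1, 100% of the Id1 record, 92.6% of the Id2 record and 97.3% of the Id3 record lay in peaks. In replicate 2 the values were 66.98%, 61.2% and 59.6%, lower at all 3 genes. In replicate 2 these stretches were broken by gaps, as at the start sites, and a record of about 1 or 2 kb holds only 1 to 4 peaks. Per the deposited read-me lists the replicate 2 list drew on 1 more file than that of replicate 1, of unstated role, and its part in these gaps was not tested.

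The bases covered were repeated to different extents among the genes. Of the bases covered in either replicate, the share covered in both was 84.9% at Id1, 80.8% at Id3, 77.4% at Smad6, 74.0% at Bmp4 and 71.6% at Id2. It was 67.1% at Bmpr2, 63.8% at Bmpr1a, 54.7% at Smad5 and 54.6% at Smad1. The 4 genes with the lowest coverage were thus the 4 with the lowest share. Counted by peaks the order was another and changed with the replicate. Of the replicate 1 peaks, 92.1% at Bmpr2, 90.7% at Bmp4, 88.7% at Id3 and 86.5% at Smad6 were overlapped by a replicate 2 peak. The share was 83.7% at Id1, 79.6% at Id2, 78.8% at Smad1, 76.5% at Bmpr1a and 72.7% at Smad5. Of the replicate 2 peaks, 75% at Bmpr2 and 70.1% at Bmpr1a were overlapped by a replicate 1 peak, the lowest shares. The highest were 94.1% at Bmp4 and 94% at Id3. In each window, and in each replicate, the median signal of the peaks found in only 1 replicate ranked below that of the shared peaks. In the replicate 1 list these medians stood above 12.5% to 35.9% of all peaks for the unshared and above 40.02% to 87.2% for the shared. In replicate 2 the ranges over the windows overlapped, at 10.5% to 43.7% and 28.7% to 91.4%.

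Of 34 other genes of the pathway, which comprise ligands, receptors, SMADs, antagonists, regulators and targets, 21 lay above the median of all genes and 13 below. Their median coverage was 18.2%, and 33 of the 34 had a replicated peak within 2 kb of the start site. The highest were Smad7, the other inhibitory SMAD gene, at 65.9% ± 0.02, Ski, which encodes a corepressor of SMADs, at 59.4% ± 0.82, and Acvrl1, a type I receptor gene, at 56.4% ± 0.67 (SD, n = 2 each). The lowest were the type II receptor gene Acvr2a at 3.86% ± 0.28, the type I receptor gene Bmpr1b at 3.00% and the ligand gene Bmp5 at 0.35% ± 0.08. Bmp5 was the 1 gene of the 34 without a replicated peak at the start site.

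Among all 43 genes ranked by coverage, Id1 was number 2, Smad6 number 6, Id3 number 9 and Id2 number 11. Bmp4 was number 17 and Bmpr1a number 21, while Smad5, Bmpr2 and Smad1 were numbers 30, 34 and 35. Both inhibitory SMAD genes were thus among the 6 highest while Smad1 and Smad5 were below the median of all genes, Smad5 only with the narrower flanks (15.96% against a median of 12.9% with 100 kb). This ordering did not follow receptor class alone, since Acvrl1 and Bmpr1b, both type I receptors, stood near its opposite ends.

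**Figure D5:**
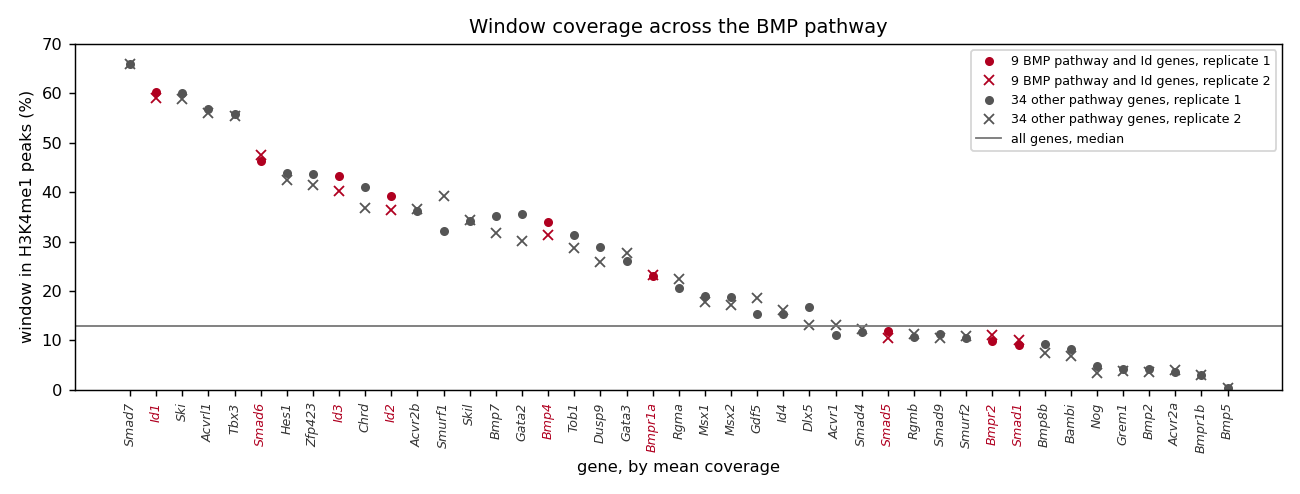
Window coverage in percent (y axis) of the 9 genes (red) and 34 other pathway genes (grey), ordered by mean coverage (x axis), with a dot for replicate 1, a cross for replicate 2 and a line at the median of all genes. The 3 Id genes and Smad6 lie among the 11 highest, and Smad5, Bmpr2 and Smad1 lie under the line.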

How the data were processed

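H3K4me1 was measured by ChIP-seq in 2 replicates of E14TG2a.4. The authors deposited, per the read-me lists, mm10 peak lists in narrowPeak format (1 per replicate, 1 of pooled replicates, 1 of replicated peaks) and mm9 lists in broadPeak format. The deposited columns used were a signal value and a −log10 q per peak. The signal value ranks peaks within a list. Not given in the sources used here are the aligner, the caller and the rule for replicated peaks. The replicate 2 and pooled lists drew on 1 more file, of unstated role. Mean ± SD covers these 2 libraries only.

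Coordinates of 21887 protein-coding genes came from a RefSeq table of GRCm38.p6. Strands came from its promoter table for 17492 and from GENCODE vM1 for 4044, and 351 genes without a strand were left out. The start site is the 5′ end of the record. For peaks, no other start was examined except that of the RefSeq promoter entry of Bmpr1a. The motif search used the RefSeq promoter entries, which start elsewhere for Bmpr1a, Smad6 and some of the Smad5 entries. For the mm9 lists, GENCODE vM1 genes on NCBIM37 were used. The deposited mm9 list of the whole series was not used here. Across genes the replicates' coverage had a Spearman coefficient of 0.994.

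All 9 genes were described. Of the 34 others the 3 highest and 3 lowest were named, 1 further gene first listed with them is not reported here, and of neighbours starting in a window with a peak within 2 kb at most the 2 nearest. The 9 genes and the other lists were named with earlier results of these data known, although no value enters the rule for the 9. Alternatives were flanks of 20 and 100 kb, start-site windows, the pooled, replicated and mm9 lists, a −log10 q of at least 2, promoter distances of 1 and 5 kb, a 50% reciprocal overlap, leaving out Smad6 or a replicate and, added after the data were seen, leaving out neighbouring genes. The functions were tested on simulated data, in Python 3.11.15 with matplotlib 3.10.9, scipy 1.17.1, pandas 2.3.3 and numpy 2.4.6.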

Additional observations from a re-analysis of the deposited data

How the results depend on the processing

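Median coverage of the 9 genes, 32.6%, was 36.5% with flanks of 20 kb, 21.6% with 100 kb, 37.3% with the pooled list, 35.9% with the replicated list and 43.3% with the mm9 lists, where the median of all genes was 20.5%. The Id genes stayed above the receptors and SMADs at the median under every alternative run, but with 100 kb Bmpr1a (28.5%) stood above Id2 (21.6%), Smad5 and Bmpr2 stood above the median of all genes, and the lowest gene of the 9 was Smad1 or Bmpr2 depending on the window and list. That difference, 30.3 points, was 25.1 with 20 kb, 25.4 with 100 kb, 27.4 around the start site, 32.1 with the replicated list, 39.4 with the mm9 lists and 27.5 without neighbouring genes. On 1 replicate alone the median of the 9 genes was 31.3% to 33.9%, the difference 29.1 to 31.4 points and the genes with a peak at the start site 9 and 9. Asking for a 50% reciprocal overlap lowered the shared peaks from 82.8% to 55.1%. A stricter overlap can only lower this share, and a peak split in 1 replicate can fail it as well as one with shifted edges. The fall therefore does not show how repeatable peak edges are. The other alternatives moved these values by less than the spread between replicates. No paired analysis was possible because there is 1 group. Without read counts the lists cannot show whether a base outside a peak lacks the mark or fell under the caller's threshold.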
